A study of Schizosaccharomyces pombe with 80 samples.

Results

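Fission yeast strains (Schizosaccharomyces pombe) that lacked both ago1 and epe1 were set against strains that lacked epe1 alone, by their lists of peaks of histone H3 dimethylated at lysine 9 (H3K9me2). The strains were chosen by their titles in the series as 3 parents labelled epe1delta ago1delta, from sets 1 to 3, and they are called ago1 parents 1, 2 and 3 below. Their reference was the 2 parents labelled epe1delta whose list held a peak. One of these was the parent of tfs1DN isolates 2 to 11 and is called the tfs1DN-series epe1 parent, and the other was the parent of the vector isolates and is called the vector-series epe1 parent. Neither held the vector or tfs1DN, which encodes a TFIIS elongation factor with dominant-negative action. A further epe1delta parent, that of tfs1DN isolates 1 and 13, had an empty list and entered no comparison except as an alternative with 0 peaks. These 5 lists were taken from a series of 80 samples, of which 75 had a list. All 5 strains were grown at 30 C, and all of them lacked epe1, so no strain with epe1 stands among them. By the study's account the ago1 strains were isolates obtained by disrupting ago1 in epe1delta cells, so each is 1 isolate. The comparison asked how H3K9me2 stood in the strains without Argonaute before tfs1DN was introduced.

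Clr4 is the only H3K9 methyltransferase of fission yeast. It methylates nucleosomes at the outer repeats of the centromeres, at the silent mating-type cassettes and next to the telomeres, and HP1 proteins bind the mark. Ago1, the Argonaute protein, is loaded with small RNAs from the outer repeats and brings the Clr4 complex back to the transcripts of those repeats, whereas the mating-type region and the chromosome ends also have ways of recruiting Clr4 that need no RNAi. Epe1 is a JmjC-domain protein that opposes the spread of heterochromatin past its borders. Islands of H3K9me2 also form at meiotic genes whose transcripts are recognised by the RNA-binding protein Mmi1 and removed during growth.

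Each list gave the start and end of its peaks and 2 coverages in reads per base, that of the peak and the average of its chromosome. Their ratio is the fold used below, and no list held a peak with a fold under 3. The lists held 34, 52 and 38 peaks in ago1 parents 1, 2 and 3, against 337 in the tfs1DN-series and 56 in the vector-series epe1 parent. Peaks covered 277, 272 and 72.8 kb in the ago1 parents, against 317 and 384 kb in the epe1 parents. The average coverage of the 3 chromosomes was 16.5 to 21.3, 20.5 to 24.4 and 18.1 to 21.2 reads per base in the ago1 parents, against 6.40 to 8.92 in the tfs1DN-series and 6.57 to 9.05 in the vector-series epe1 parent. These averages were higher in each ago1 list than in either epe1 list. In the vector-series list the peaks held 116% of the average coverage times the length of chromosome II and 234% of that of chromosome III, so that its average was no plain mean over all positions. No such share exceeded 71.4% in the other 4 lists. Folds were therefore compared within a list, and given side by side between lists, where they are not on 1 scale. Where a difference in fold between lists is given, it describes the listed values only. Since no listed peak had a fold under 3, lengths and counts of peaks rest on the same averages. They may share this limit between lists, which was not tested. The labels pair each parent with 1 input per set, shared with the isolates of that set, and the input of the tfs1DN-series epe1 parent is titled for its tfs1DN isolates. No set held parents of both groups, so group and set cannot be told apart.

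**Figure D1:**
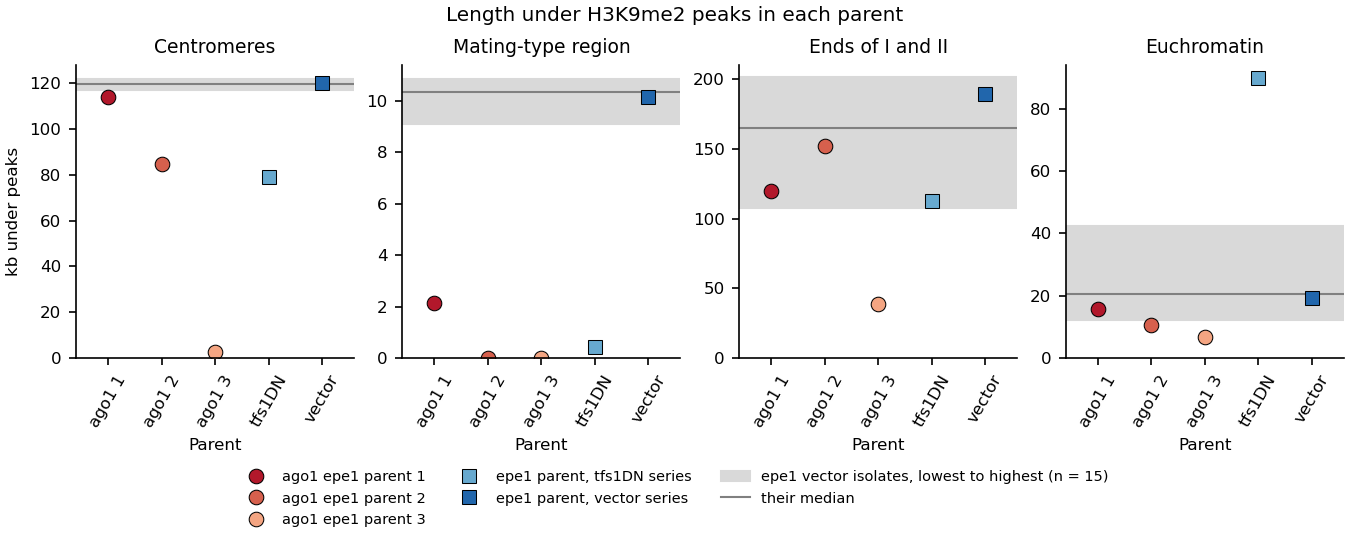
Length under H3K9me2 peaks (kb, y axis from 0) in the 3 ago1 epe1 parents (circles) and the 2 epe1 parents (squares), for the centromeres, the mating-type region, the ends of chromosomes I and II and euchromatin, with 1 point per parent and no error bar. The grey band runs from the lowest to the highest of 15 epe1 vector isolates and the line is their median. At the centromeres and chromosome ends ago1 parent 3 (2.56 and 38.7 kb) lies far below the other 4 parents, while in euchromatin the tfs1DN-series epe1 parent (89.9 kb) lies above all of them.

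The 3 centromeres differed more among the ago1 parents than between the groups. Over the 169 kb between the coding genes that flank them, peaks covered 114 kb in ago1 parent 1, 84.9 kb in parent 2 and 2.56 kb in parent 3, against 79.0 kb in the tfs1DN-series and 120.1 kb in the vector-series epe1 parent. Parent 1 thus lay close to the vector-series parent, parent 2 close to the tfs1DN-series parent, and parent 3 below both. The means were 67.1 ± 57.8 kb in the ago1 parents (SD, n = 3) and 99.5 ± 29.0 kb in the epe1 parents (SD, n = 2), a difference of -32.4 kb with p = 0.6 in a two-sided exact permutation test. With 3 against 2 parents the smallest p this test can give is 0.2. Without ago1 parent 3 the difference was -0.129 kb. The 15 epe1 vector isolates, which show the spread among isolates of 1 background, had 117 to 122 kb, and all 3 ago1 parents and the tfs1DN-series parent were below that range.

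In ago1 parent 1 each arm of each centromere was a single peak. At centromere 1 these ran over 12.3 kb from 3752528 to 3764790 and over 13.1 kb from 3777527 to 3790579 of chromosome I, on either side of the central core, where the centromeric histone replaces H3. The same shape was seen in the vector-series epe1 parent. In ago1 parent 2 the arms were broken into 23 peaks, and in the tfs1DN-series parent into 26. Ago1 parent 3 kept 5 peaks, of 0.085 kb at centromere 1, 0.333 kb at centromere 2, and 1.04, 0.372 and 0.730 kb at centromere 3. The highest fold among these 5 was 3.63, close to the least fold in the list. The cores between the innermost tRNA genes held 0 kb in all 5 parents.

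By centromere the lengths were 25.3, 29.9 and 58.7 kb in ago1 parent 1, 19.2, 23.4 and 42.3 kb in parent 2, and 0.085, 0.333 and 2.15 kb in parent 3, for centromeres 1, 2 and 3. The epe1 parents had 17.4, 20.1 and 41.5 kb in the tfs1DN series and 27.6, 32.3 and 60.2 kb in the vector series. The order of the 5 parents was therefore the same at each centromere. The peaks were also nested. All of the centromeric bases of ago1 parent 3 lay under peaks of ago1 parent 2, all those of parent 2 under peaks of parent 1, and all those of parent 1 under peaks of the vector-series epe1 parent. In the other direction parent 1 covered 94.9%, parent 2 covered 70.8% and parent 3 covered 2.13% of the centromeric bases of the vector-series parent.

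**Figure D2:**
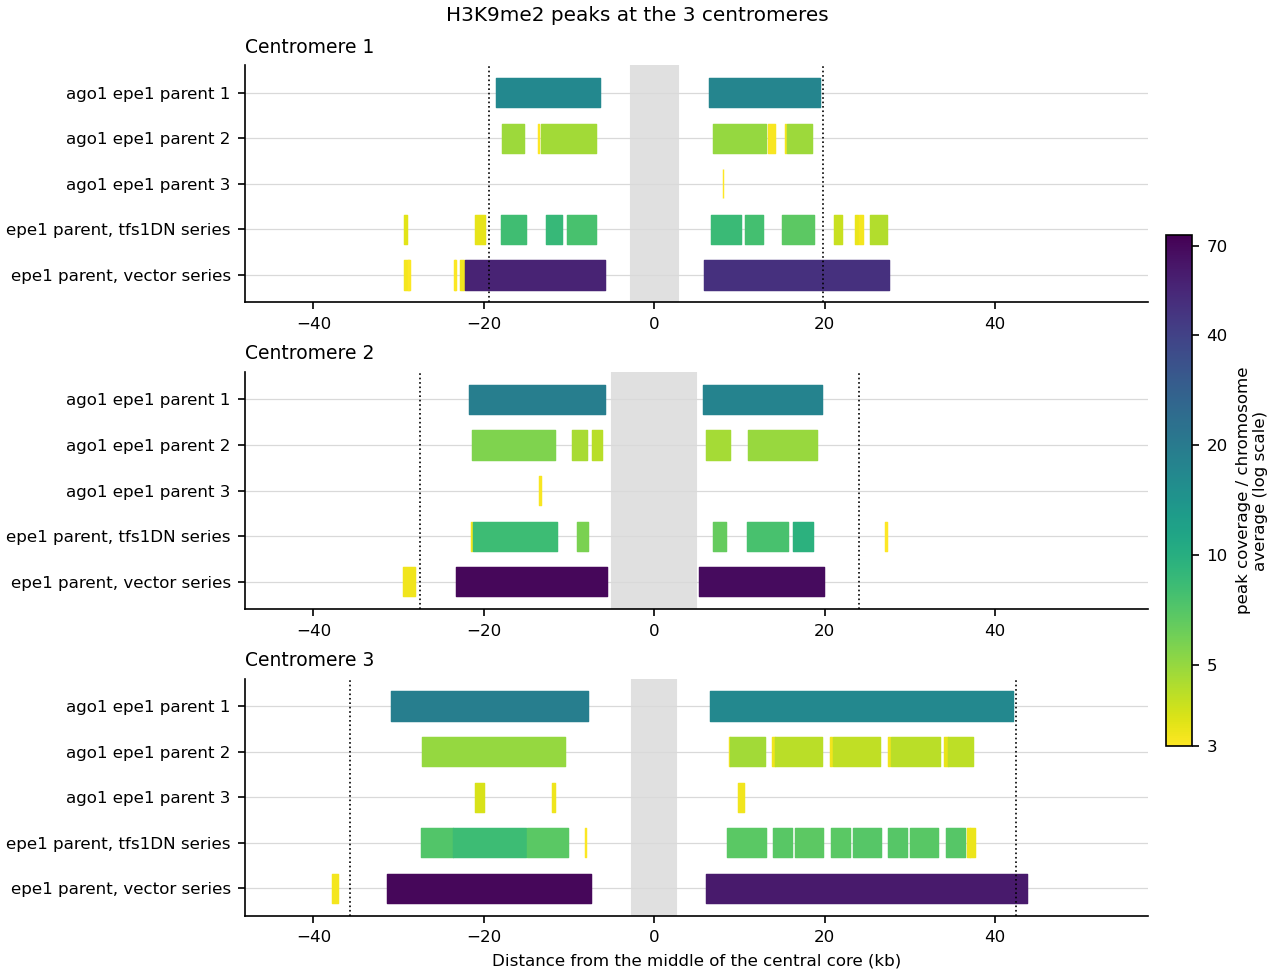
H3K9me2 peaks (bars) at centromeres 1 to 3 in the 3 ago1 epe1 parents and below them the 2 epe1 parents, against the distance from the middle of the central core (kb). Grey marks the core, dotted lines the nearest coding genes, and bar colour the fold of the peak over the average of its chromosome in the same list (log scale, not on 1 scale between lists). Ago1 parent 1 has 1 unbroken peak on each arm, parent 2 has 23 shorter ones in all and parent 3 has 5, and peaks beyond the dotted lines of centromere 1 are found in both epe1 parents and in no ago1 parent.

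The length-weighted mean fold of the centromeric peaks was 17.7 in ago1 parent 1, 4.73 in parent 2 and 3.37 in parent 3, against 7.47 in the tfs1DN-series and 63.0 in the vector-series epe1 parent. The difference of the means was -26.6 (p = 0.4, exact permutation test), and without the vector-series parent it turned to 1.14. These folds are not on 1 scale between lists, so the difference cannot be read as one in enrichment. Inputs held peaks over 4.90, 1.14 and 1.87 kb of the centromeres for ago1 parents 1, 2 and 3, against 0 and 9.92 kb for the tfs1DN-series and vector-series epe1 parents. With those bases taken out the lengths were 109, 83.8 and 1.60 kb in the ago1 parents, against 79.0 and 110.1 kb. The listed averages of the inputs differed, at 4.95 to 5.73 reads per base for the tfs1DN-series and 19.0 to 24.3 for the vector-series epe1 parent. They were higher for the ago1 parents, where the lowest was 34.1. Of all 50-base words in the arms, 83.2 to 95.1% occurred more than once in the reference genome, against 3.19 to 6.92% over whole chromosomes. Since reads that match several places were put at 1 of them, the values of single arms share reads.

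The borders of centromere 1 set the parents of the groups apart by presence. Within 10 kb outside it, peaks covered 0 kb in ago1 parents 1, 2 and 3, against 5.47 kb in the tfs1DN-series and 11.9 kb in the vector-series epe1 parent. The vector isolates had 5.95 to 17.8 kb there. In the vector-series parent the peaks joined to the centromere, with gaps under 1 kb, reached 4.06 kb past the edge of per1 on one side. On the other they reached 7.77 kb past the edge of emc5. There they lay over rad50, a subunit of the MRN complex for DNA break repair, and sdh1, a subunit of succinate dehydrogenase. Further peaks lay beyond them on the per1 side, among them those from 3739595 to 3742485 of chromosome I. A peak lay over lys1, which encodes aminoadipate reductase of lysine synthesis, and over prm1, per1, rad50 and sdh1 in both epe1 parents, and over none of these 5 genes in an ago1 parent. The sites HOOD-8, at prm1 and lys1, and HOOD-9, at rad50, were accordingly the 2 of 82 curated heterochromatin sites with a peak in both epe1 parents and no ago1 parent. Isolates with tfs1DN were less clearly split. With ago1 deleted, rad50 carried a peak in 5 of 12, sdh1 in 5 of 12 and lys1 in 0 of 12. With ago1 present the counts were 3 of 13, 9 of 13 and 8 of 13. Outside centromere 2 the ago1 parents had 0 kb, against 0.213 and 1.40 kb, and outside centromere 3 they had 0 kb, against 0 and 2.02 kb. At these 2 centromeres the lowest vector isolate also had 0 kb.

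At the mating-type region, taken as the 25.2 kb between rga7 and emc3, peaks covered 2.13 kb in ago1 parent 1 and 0 kb in parents 2 and 3, against 0.408 kb in the tfs1DN-series and 10.2 kb in the vector-series epe1 parent. The symbols mat2-Pc and mat2-Pi had no match in the annotation. Whether this stretch holds those genes was not tested, so the lengths refer to the stretch alone. The vector isolates had 9.09 to 10.8 kb. Of the 5 parents the vector-series one alone was in their range, so the low values of the ago1 parents were shared by the tfs1DN-series epe1 parent. The 4 peaks of ago1 parent 1 included 0.545 kb at mat1, from 2114320 to 2114864 of chromosome II, and 1.16 kb at the silent cassette mat3, from 2132092 to 2133246. The peak at mat1 touched mat1-Mc and mat1-Mi, with a fold of 3.48, and that at mat3 touched mat3-Mc and mat3-Mi, with 3.80. These are genes of the M mating type. The peaks from 2130634 to 2130764 and from 2136012 to 2136310 touched no coding gene and had folds of 3.08 and 3.10. In the vector-series parent peaks ran up to 2.70 kb past the edge of emc3, to mtd1. The difference of the means was -4.58 kb (p = 0.4, exact permutation test). Without the vector-series parent it was 0.302 kb, so that 1 library set its direction. The inputs of the 5 parents held no peak in the region.

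Ago1 parent 3 had the least sequence under peaks at the chromosome ends of the 5 parents, as at the centromeres. In the outermost 100 kb on both sides of chromosomes I and II, peaks covered 120.04, 152 and 38.7 kb in ago1 parents 1, 2 and 3, against 113 and 189 kb in the tfs1DN-series and vector-series epe1 parents. Vector isolates had 107 to 202 kb, a range that held parents 1 and 2 and both epe1 parents but not parent 3. The helicase genes tlh1 and tlh2, which lie next to telomeres, were under a peak over their whole 5.66 and 6.02 kb in all 5 parents. Peaks lay over tlh1 in 4 of the 5 inputs, that of ago1 parent 2 being the exception, and over tlh2 in all 5. By presence alone tlh2 thus does not separate immunoprecipitate from input, and tlh1 does so only in ago1 parent 2. The input peaks of ago1 parent 3 covered 0.758 kb of tlh1 and 2.06 kb of tlh2, a part of each gene. The left end of chromosome III, next to the ribosomal DNA, held 24.84 to 24.96 kb in the ago1 parents, against 24.90 and 25.86 kb in the epe1 parents, and 24.87 to 26.03 kb in the inputs. It is left out of the sums above. With it and the right end of chromosome III included, the difference of the means was -48.4 kb (p = 0.6, exact permutation test). It was -10.2 kb without the vector-series epe1 parent, -15.9 kb without ago1 parent 3 and -86.5 kb without the tfs1DN-series epe1 parent, and -11.96 kb with the peaks that overlap an input peak left out.

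The left end of chromosome I had 57.0, 58.9 and 16.2 kb in ago1 parents 1, 2 and 3, against 36.2 and 91.1 kb in the epe1 parents. In ago1 parents 1 and 2 a first peak ran 36.7 and 36.3 kb from the end of the assembly and a second block lay farther in, so that peaks reached 74.5 and 78.4 kb, over 23 of 33 coding genes in each. In the vector-series epe1 parent 1 peak of 90.9 kb ran through, over 31 of the 33 genes. Ago1 parent 3 kept a first peak of 10.4 kb and touched 5 genes. The tfs1DN-series parent kept one of 10.7 kb and touched 16. The 2 lists with a short first peak were thus one of each group.

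The right end of chromosome II had 41.5, 40.6 and 17.1 kb in ago1 parents 1, 2 and 3, against 22.8 and 56.4 kb in the epe1 parents. Its longest peak, which holds tlh2, was 41.5, 37.5 and 14.5 kb in the ago1 parents, against 11.2 and 53.6 kb. The left end of chromosome II had 20.2, 17.4 and 0.901 kb in the ago1 parents, against 8.59 and 36.8 kb. At both ends ago1 parents 1 and 2 lay between the 2 epe1 parents. Galactokinase gene gal1, at the right end of chromosome II, was under a peak in both epe1 parents and in no ago1 parent.

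The right end of chromosome I went against this order. It had 1.36 kb in ago1 parent 1, 35.2 kb in parent 2 and 4.46 kb in parent 3, against 45.1 kb in the tfs1DN-series and 4.97 kb in the vector-series epe1 parent. The vector isolates had 0 to 9.50 kb, so ago1 parent 2 and the tfs1DN-series parent were above all of them. In ago1 parent 2 a peak of 32.0 kb ran from 17.7 to 49.7 kb from the end, and 11 of 33 coding genes were touched, among them the flocculin gene pfl9 and the pyruvate decarboxylase gene pdc102. In the tfs1DN-series parent 34 shorter peaks touched 23 genes. In ago1 parent 3 the peaks nearest the end began 0.161 kb from it and touched SPAC750.08C, which had no peak in an epe1 parent. In this window 19.5% of 50-base words were repeated elsewhere, against 39.9 to 46.3% at the other 3 ends of chromosomes I and II.

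**Figure D3:**
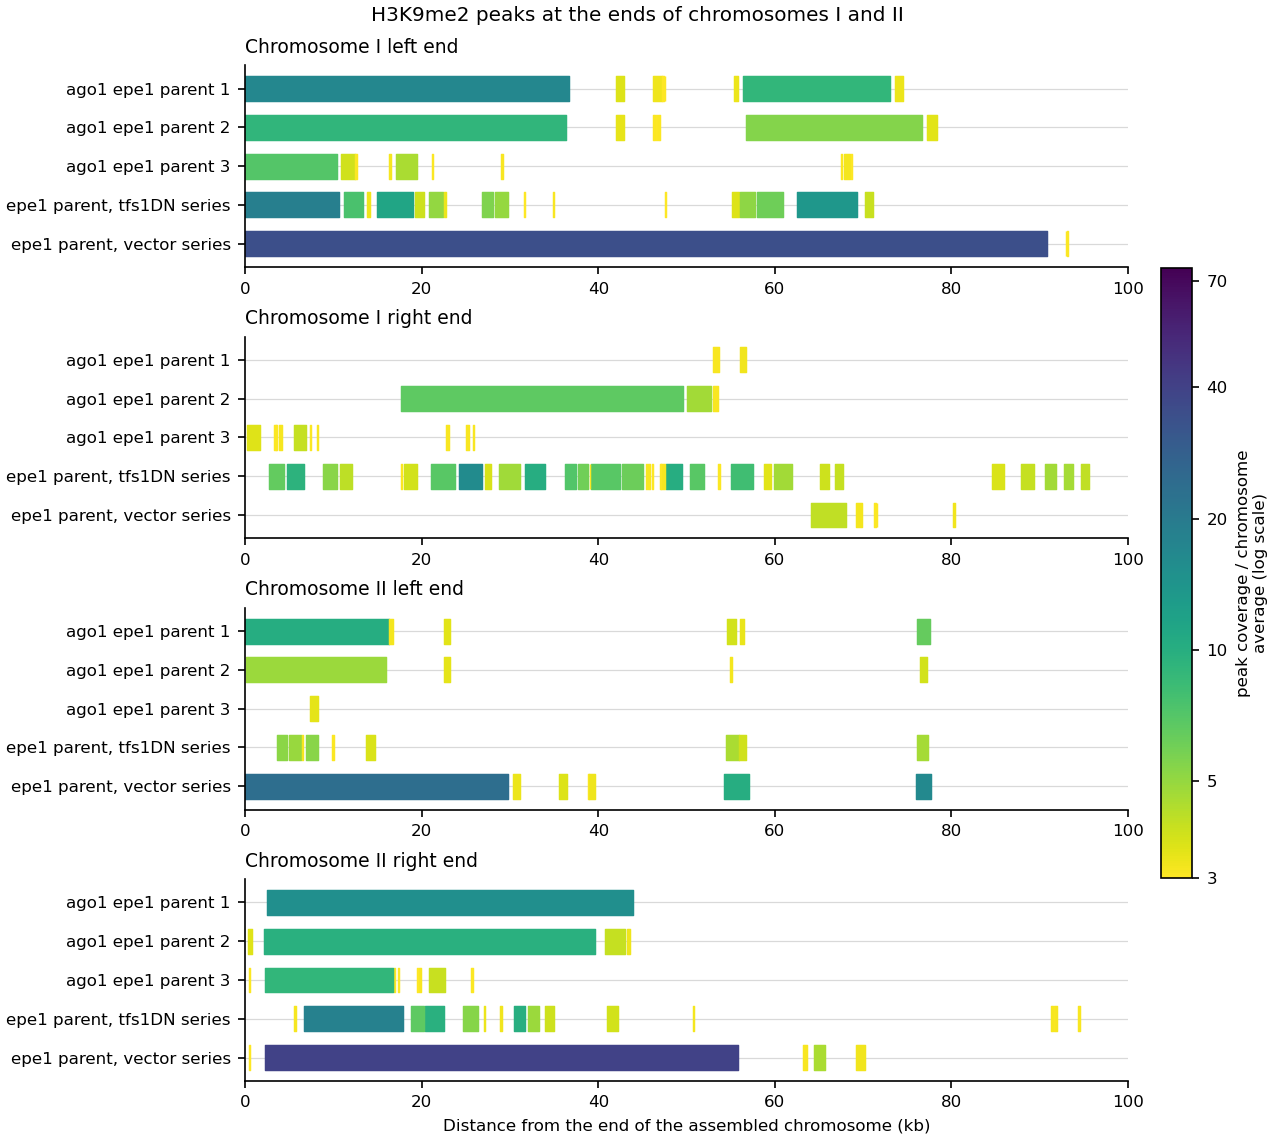
H3K9me2 peaks (bars) over the last 100 kb of both ends of chromosomes I and II in the 3 ago1 epe1 parents and below them the 2 epe1 parents, against the distance from the end of the assembled chromosome (kb). Bar colour is the fold over the chromosome average of the same list (log scale, not on 1 scale between lists). At the right end of chromosome I, ago1 parent 2 (35.2 kb) and the tfs1DN-series epe1 parent (45.1 kb) stand apart, and at the other 3 ends the longest peaks are those of the vector-series epe1 parent.

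The ends and the centromere of 1 chromosome share an average in each list, which cancels in the ratio of their folds. The mean fold of the right end of chromosome II divided by that of centromere 2 was 0.830 in ago1 parent 1, 1.82 in parent 2 and 2.63 in parent 3, against 1.54 in the tfs1DN-series and 0.542 in the vector-series epe1 parent. For the left end of chromosome I over centromere 1 the ratio was 0.802, 1.60 and 1.98 in the ago1 parents, against 1.47 and 0.670. Ago1 parents 2 and 3 and the tfs1DN-series epe1 parent therefore had higher folds at these ends than at the centromere. Ago1 parent 1 and the vector-series epe1 parent had lower ones. This grouping did not hold at the left end of chromosome II. The ratio there was 0.496, 0.924 and 1.11 in the ago1 parents, against 0.583 and 0.301. Nor did it hold at the right end of chromosome I, with 0.184, 1.36 and 1.15 in the ago1 parents. There both epe1 parents had lower folds at the end than at the centromere. In ago1 parent 3 the ratios of chromosomes II and I rest on 0.333 and 0.085 kb of centromeric peaks.

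In euchromatin, over 10 kb from all of these regions, peaks less than 1 kb apart were merged. There were 5, 8 and 3 merged peaks in ago1 parents 1, 2 and 3, over 15.6, 10.4 and 6.68 kb, against 195 over 89.9 kb in the tfs1DN-series and 11 over 19.2 kb in the vector-series epe1 parent. The vector isolates had 7 to 13. Each ago1 parent had fewer merged peaks than either epe1 parent. The difference of the means was -97.7 peaks and -43.6 kb, each with p = 0.2 (exact permutation test), the least that 3 against 2 parents can give. Among peaks of at least 1 kb the differences were -4 peaks and -4.30 kb. Without the tfs1DN-series parent the differences over peaks of any length were -5.67 peaks and -8.28 kb. At a fold of at least 4.5, with that parent kept, the difference was -1 peak and in length turned to 1.99 kb.

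The gene clr4 itself carried the longest euchromatic peak of ago1 parents 2 and 3. It was 4.26 kb long in parent 2, from 453884 to 458141 of chromosome II, and 4.35 kb in parent 3, from 453838 to 458188. No peak lay at clr4 in ago1 parent 1, in either epe1 parent, in any of the 5 inputs, or in any of the 15 vector isolates. The 2 parents with the peak were those with the least centromeric H3K9me2 of the 3 ago1 parents, at 84.9 and 2.56 kb. The tfs1DN-series epe1 parent had less than ago1 parent 2, at 79.0 kb, and no peak at clr4. A link between clr4 and centromeric peaks was not tested. By Fisher's exact test, 2 of 3 against 0 of 2 parents gave p = 0.4. On the annotation clr4 lies on the minus strand from 453996 to 458410, and meu6, a gene upregulated in meiosis, lies within its span on the plus strand from 454161 to 456553. The peaks covered 93.9% and 95.0% of clr4 and all of meu6, and every base of both coding sequences. On the 5′ side they ended 94 and 141 bases upstream of the start codon of clr4, still within its annotated span, and on the 3′ side 112 and 158 bases past the end of the gene. The next peak on the chromosome was 377 and 446 kb away.

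The start of the 2 coding sequences is shown to place these peaks. Both come from the RefSeq assembly ASM294v3, are written 5′ to 3′ on the coding strand, and have the start codon in capitals. The clr4 stretch is chromosome II from 457988 to 458047, minus strand, and the meu6 stretch is 454230 to 454289, plus strand.
clr4: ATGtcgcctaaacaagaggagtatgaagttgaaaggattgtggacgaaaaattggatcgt
meu6: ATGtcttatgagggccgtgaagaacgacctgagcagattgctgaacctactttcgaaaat

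The coverage of the clr4 peak was 115 reads per base in ago1 parent 2 and 103 in parent 3, with folds of 5.26 and 5.29. By fold it ranked 7 of 27 peaks of at least 1 kb in parent 2 and 4 of 11 in parent 3. It stood at 1.03 times the mean fold of centromere 2, on the same chromosome, in parent 2 and at 1.70 times in parent 3. The highest fold of a peak at that centromere was 5.61 in parent 2, above that of clr4, and 3.11 in parent 3, below it. None of the 50-base words of the peak occurred elsewhere in the genome.

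**Figure D4:**
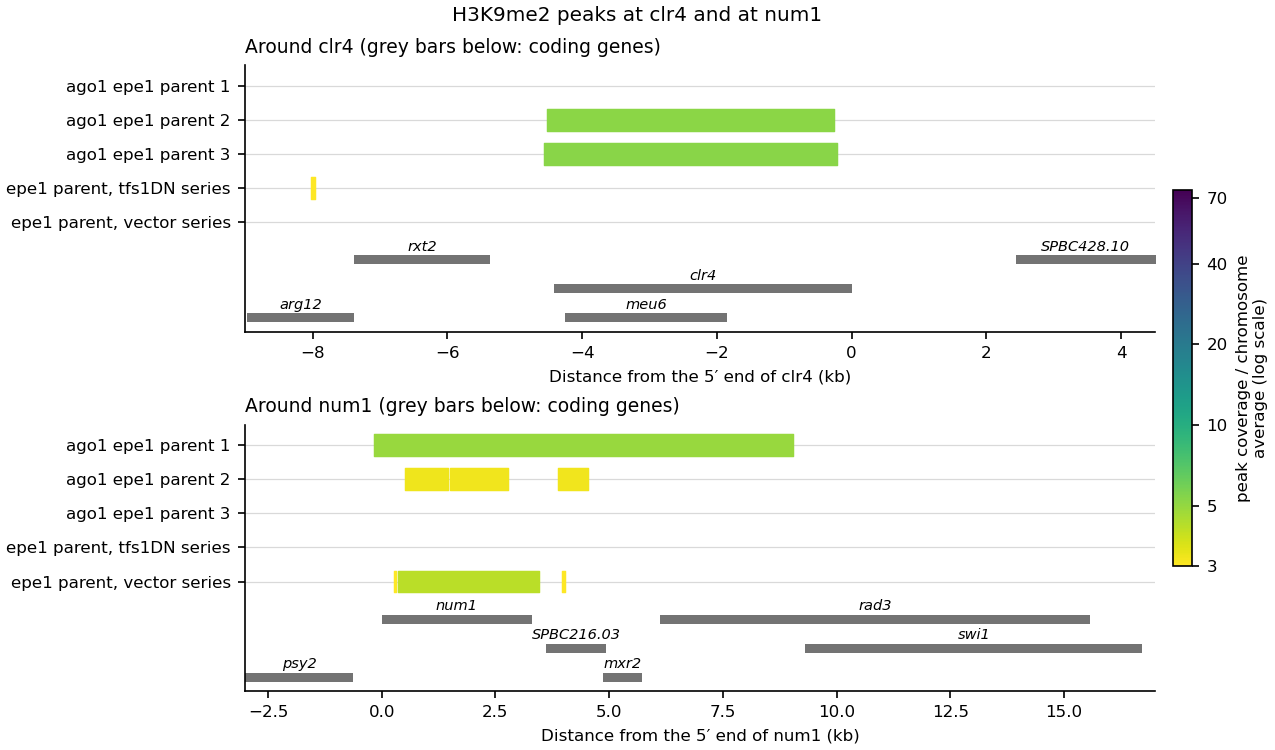
H3K9me2 peaks (bars) around clr4 (upper panel) and num1 (lower panel) in the 3 ago1 epe1 parents and below them the 2 epe1 parents, against the distance from the 5′ end of the gene (kb, along the chromosome), with coding genes as grey bars. Bar colour is the fold over the chromosome average of the same list (log scale, not on 1 scale between lists). At clr4 ago1 parents 2 and 3 have a peak of 4.26 and 4.35 kb, and at num1 ago1 parent 1 has a peak of 9.20 kb that reaches into rad3.

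Of 10 genes for meiotic transcripts removed by Mmi1, 4 had a peak in at least 1 of the 5 parents, and none of the 10 had one in ago1 parent 3. The gene num1, listed elsewhere as mcp5, encodes a cortical anchor for dynein in meiosis. Peaks covered 3.31 kb of it in ago1 parent 1, 2.21 kb in parent 2 and 0 kb in parent 3, against 0 kb in the tfs1DN-series and 3.00 kb in the vector-series epe1 parent. The gene mei4, for a forkhead transcription factor of meiosis, had 1.12, 0.900 and 0 kb in the ago1 parents, against 0 and 2.00 kb. The gene mcp7, for a protein of meiotic recombination, had 1.28, 0 and 0 kb, against 0 and 1.50 kb, and the neighbouring ubp8, a deubiquitinase gene of the SAGA complex, carried a peak in ago1 parents 1 and 2 and in both epe1 parents. The gene ssm4, for a dynactin subunit of meiosis, had 0 kb in all 3 ago1 parents, against 0 and 2.06 kb. All 4 genes carried a peak in 15 of 15 vector isolates. The tfs1DN-series epe1 parent, which has ago1, also had none over these 4 genes.

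Beyond clr4, the peak at num1 was longer in an ago1 parent than in both epe1 parents. In ago1 parent 1 it was a single peak of 9.20 kb, from 897889 to 907090 of chromosome II, over num1, SPBC216.03, mxr2 and part of rad3. Mxr2 is a methionine sulfoxide reductase and Rad3 is the checkpoint kinase related to ATR. In the vector-series parent peaks covered 3.22 kb there and ended before mxr2. The lengthening was not particular to ago1, since mxr2 carried a peak in 9 of 15 and rad3 in 5 of 15 vector isolates.

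Mmi1 binds transcripts at clusters of the RNA motif UNAAAC, which reads TNAAAC in the DNA of the coding strand. The stretches of 60 bases with the most such motifs are shown for mei4, mcp7 and num1, over which a peak lay in an ago1 parent, and for ssm4, over which none lay. TNAAAC is in capitals, N being any base, only the coding strand was searched, and overlapping matches were counted. They are from ASM294v3, at chromosome II from 1473911 to 1473970 (plus strand), chromosome I from 579013 to 579072 (plus strand), chromosome II from 898191 to 898250 (plus strand) and chromosome I from 4535255 to 4535314 (minus strand).
mei4: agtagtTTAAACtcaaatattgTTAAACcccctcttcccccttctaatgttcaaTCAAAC
mcp7: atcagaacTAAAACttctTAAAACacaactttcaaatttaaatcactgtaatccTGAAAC
num1: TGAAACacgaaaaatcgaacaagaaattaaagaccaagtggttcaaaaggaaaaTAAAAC
ssm4: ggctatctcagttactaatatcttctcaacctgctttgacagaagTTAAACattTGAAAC
The mei4 and mcp7 stretches hold 3 motifs each, and the num1 and ssm4 stretches 2 each, so that the number did not separate the genes with a peak in an ago1 parent from ssm4. A window with 3 or more was found in the coding sequence of 0.724% of 5113 genes, and one with 2 or more in 16.5%. The coding sequences held 6.44 motifs per kb in mei4, 7.90 in mcp7, 6.19 in num1 and 6.46 in ssm4, against a median of 1.52 over all coding genes, and 1.43% of genes or fewer were as dense as any of these. By density ssm4, with no peak in an ago1 parent, was not below mei4 or num1. The genes clr4 and meu6 held 2.72 and 3.07 per kb, and 18.4% and 13.1% of genes were at least as dense.

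A pair of further sites had a peak in all 3 ago1 parents. At gsf2, the gene of a flocculin for cell adhesion and the site Island 18, peaks covered 1.48, 1.28 and 1.37 kb in ago1 parents 1, 2 and 3, against 0 kb in the tfs1DN-series and 0.306 kb in the vector-series epe1 parent. It was thus longer in each ago1 parent than in both epe1 parents, while 10 of 15 vector isolates, which have ago1, also carried a peak. With tfs1DN, gsf2 carried one in 12 of 12 ago1 isolates. So did 5 of 13 epe1 tfs1DN and 15 of 15 seb1-1 epe1 tfs1DN isolates, which have ago1. The input of ago1 parent 3 also held a peak over gsf2, and 89.1 to 95.9% of the 50-base words under the 3 peaks were repeated in the genome, so the part of repeated sequence in this difference was not tested. Between fil1, a GATA-type transcription factor gene, and gir2, peaks covered 0.982, 0.280 and 0.952 kb, against 1.02 and 0.980 kb, with peaks in the inputs of ago1 parent 1 and the vector-series parent. At erm1 a peak of 0.071 kb lay in ago1 parent 2, against 1.04 kb in the vector-series epe1 parent. At mae2, a malic enzyme gene, no ago1 parent had a peak, against 0 and 0.972 kb, while 15 of 15 vector isolates had one. Its absence was not particular to strains without ago1. A peak lay there in 0 of 13 epe1 tfs1DN isolates, 0 of 12 ago1 isolates with tfs1DN and 15 of 15 seb1-1 epe1 tfs1DN isolates.

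**Figure D5:**
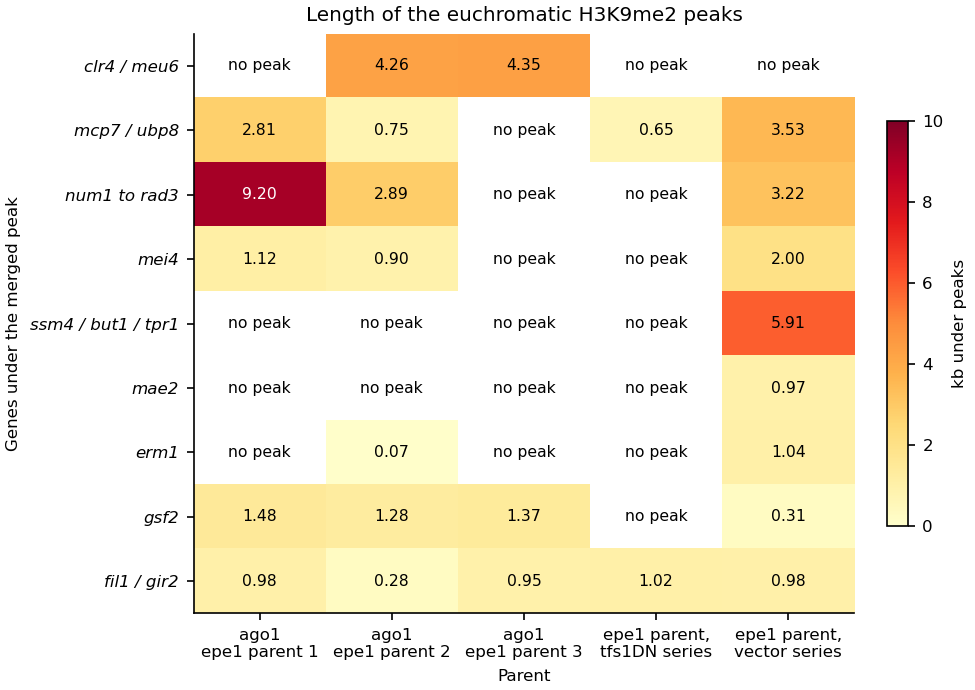
Length under H3K9me2 peaks (kb, number and colour) at the euchromatic sites with a peak in an ago1 parent, and at the ssm4 and mae2 sites, in the 3 ago1 epe1 parents and right of them the 2 epe1 parents. The clr4 row is filled in ago1 parents 2 and 3 only, the gsf2 row is longer in all 3 ago1 parents (1.28 to 1.48 kb) than in the epe1 parents (0 and 0.306 kb), and ssm4 and mae2 are filled in the vector-series epe1 parent only.

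Of the 82 curated heterochromatin sites that the study assembled from earlier work, which overlap each other in part, 9 carried a peak in ago1 parent 1 (11.0%), 11 in parent 2 (13.4%) and 1 in parent 3 (1.22%), against 21 in the tfs1DN-series (25.6%) and 16 in the vector-series epe1 parent (19.5%). Vector isolates had 12 to 17. All 3 ago1 parents were below both epe1 parents, with a difference of the means of -11.5 sites (p = 0.2, exact permutation test, the smallest the design allows). It was -1.67 sites (p = 0.8) where at least 50% of a site had to be covered, -1.83 (p = 0.6) at a fold of at least 4.5 and -3.5 (p = 0.6) for peaks of at least 1 kb, in the same exact test. The single site of ago1 parent 3 was Island 18 at gsf2. No site had a peak in an ago1 parent and in neither epe1 parent, while clr4 is not among the sites.

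Over all 5113 coding genes a peak touched 1.15%, 1.23% and 0.332% in ago1 parents 1, 2 and 3, against 5.28% in the tfs1DN-series and 1.94% in the vector-series epe1 parent. A peak in an ago1 parent and in neither epe1 parent was found for 5 genes (0.0978%). These were clr4 and meu6 in parents 2 and 3, mxr2 and rad3 in parent 1, and SPAC750.08C in parent 3. The reverse, a peak in both epe1 parents and in no ago1 parent, was found for 8 genes (0.156%). These were the 5 genes beside centromere 1, gal1, and SPAC869.03C and SPAC869.04 at the right end of chromosome I. A peak in the vector-series parent and in no ago1 parent was found for 41 genes (0.802%).

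Read against these shares, a list named for the Clr4 complex and HP1 proteins, which also holds stc1 and lid2, had 9 genes. Of these, 1 carried a peak in ago1 parents 2 and 3, namely clr4, and 0 of 9 did in the other 3 parents. None of the 10 RNAi genes, the 6 genes of SHREC and other deacetylases or the 5 antisilencing genes carried one in any of the 5 parents. The RNAi list includes ago1, deleted in the ago1 parents, and the antisilencing list includes epe1, deleted in all 5. For these genes the lack of a peak in those strains follows from the genotype. Of 10 genes for meiotic transcripts removed by Mmi1, 3, 2 and 0 carried a peak in ago1 parents 1, 2 and 3, against 0 and 4. Of 10 euchromatic control genes, 0 carried one in each ago1 parent, against 7 in the tfs1DN-series and 0 in the vector-series epe1 parent.

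The peaks of the tfs1DN-series epe1 parent were of another kind from those of the ago1 parents. The input of the tfs1DN-series parent had listed averages of 4.95 to 5.73 reads per base, the lowest among the inputs of the parents. Whether this limited the peaks of that input was not tested. The 195 euchromatic merged peaks of the parent itself had a median length of 0.388 kb, and 181 of them lay over no curated site and no input peak. The longest lay over glt1 and over the translation elongation genes eft201 and tef3, the ribosomal protein genes rps1602 and rpl13, the fatty acid desaturase gene ole1, the eisosome gene pil1, and lsd90, shd1, sks2 and but2. Among its control genes were tdh1, pgk1, eno101, fba1 and adh1 of sugar metabolism, at 0.807, 0.474, 0.480, 0.559 and 0.365 kb. Only 2 of the 195 overlapped a euchromatic peak of the vector-series parent, against 5 of 5, 7 of 8 and 2 of 3 of those in ago1 parents 1, 2 and 3. In ago1 parents 2 and 3 the 1 peak that overlapped none was that at clr4.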

How the data were processed

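The deposited peak lists, 1 per library, were used as they stood. By the study's methods, adaptors were trimmed, reads shorter than 20 nt were dropped, and Bowtie aligned the others to ASM294v2, with reads of several matches placed at 1 of them, before smoothing over 1 kb. SAMtools and bedtools are also named in the submitters' notes, while the peak caller and the versions are not given in the sources used here. The signal deposited by the authors was coverage in reads per base, without scaling or input correction. Positions are as listed, counted from 1. Genes and sequences came from RefSeq ASM294v3, whose chromosome names match and whose ends no peak passed, but the builds could not be compared base by base. Peaks less than 1 kb apart were merged. Regions were the spans between flanking genes, the outer 100 kb of chromosomes I and II, and the outer 50 kb of III. Differences of means were tested with a two-sided exact permutation test and the clr4 count with Fisher's exact test (SciPy 1.17.1, NumPy 2.4.6, Python 3.11.15). Over the 8 comparisons the p-values adjusted by the Benjamini-Hochberg method were 0.533 to 0.6. Nothing says that parents of a group came from separate cultures beyond being separate strains or libraries. Named genes were those of fixed lists or under euchromatic peaks of the ago1 parents, those under the 10 longest such peaks of each epe1 parent, genes at the borders of constitutive peaks, and sites that set the groups apart. Members, lists and tests were chosen with earlier results of these data known. For 4 mating-type symbols, mat1-Mm, mat2-Pc, mat2-Pi and mat3-Mm, the lists had no match in the annotation. Counting of genes and of repeated words was tested on simulated data.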

Additional observations from a re-analysis of the deposited data

Results flagged for a closer look

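Peaks over clr4 outside the parents were looked at because no vector isolate had one. The other 70 lists included those of inputs, the empty list and the vector isolates themselves. Among them, 2 held a peak over clr4, against 0 of 15 vector isolates. The peaks were in epe1 tfs1DN isolate 9 (0.141 kb, fold 3.08) and in seb1-1 epe1 tfs1DN isolate 5 (0.233 kb, fold 3.06). Both lay inside the span of the peaks of ago1 parents 2 and 3 and both were near the lowest fold in the lists. None of the 12 ago1 isolates with tfs1DN had one. The difference was not tested.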

How the results depend on the processing

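The 8 comparisons were repeated under 90 alternatives in all, and none reached p = 0.05. Of these, 5 changed direction. With the empty list entered as 0 peaks, the difference at the centromeres was 0.769 kb and at the chromosome ends 10.6 kb. Without the vector-series epe1 parent the mating-type difference was 0.302 kb (leave-one-out range -9.46 to 0.302) and that in centromeric fold 1.14 (-54.4 to 1.14). At a fold of at least 4.5 the difference in euchromatic length was 1.99 kb. The alternatives for merged peaks, curated sites and clr4 kept their direction, though only -1 merged peak and -1.83 sites were left of the difference when peaks under a fold of 4.5 were dropped. Taking out the bases under input peaks and leaving out chromosome III were added after the data were seen. Leaving out any parent put the centromere difference between -55.8 and -0.129 kb and that in merged peaks between -189.7 and -5.67. No paired analysis was possible because the numbers of the ago1 sets are shared with no epe1 parent. What depth limits was not tested, since the listed averages were not depths in every list.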
